A study of Saccharomyces cerevisiae with 103 samples.

Results

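The core histone genes of the budding yeast Saccharomyces cerevisiae were followed in RNA level and in poly(A) tail length, in growing cells, through meiosis and on return to growth. They are 8 genes, taken by name from tables that list 6692 genes, and each of the 8 had a row in the RNA count, poly(A) tag and tail tables. HTA1 (YDR225W) and HTA2 (YBL003C) encode histone H2A, HTB1 (YDR224C) and HTB2 (YBL002W) encode H2B, HHT1 (YBR010W) and HHT2 (YNL031C) encode H3, and HHF1 (YBR009C) and HHF2 (YNL030W) encode H4. The rule uses their names only.

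DNA is wound around particles of H2A, H2B, H3 and H4, and new histones are needed whenever DNA is copied. In yeast the mRNAs of these histones carry poly(A) tails, unlike most core histone mRNAs of animals, and in dividing cells they are made mainly in S phase. Diploid yeast that runs out of nitrogen and fermentable sugar copies its DNA before the meiotic divisions and then packs the products into spores. Tail shortening by Ccr4 and Pop2, deadenylases of the Ccr4-Not complex, generally comes before decapping and digestion of an mRNA by the 5' to 3' exonuclease Xrn1.

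All samples were of SK1, a strain that sporulates fast and with good synchrony, and 5 experiments made up the set of 103 libraries. In the first, WT cells grown in rich medium (YPD) and then in the premeiotic medium BYTA were moved to sporulation medium (SPO) and sampled at 0 to 9 h, with 2 RNA-seq libraries and 2 poly(A) tag libraries (labelled mPAT) at each of the 10 hours. In the second, WT cells were taken from SPO after 1 h or 7 h and put back into YPD (2%), with 2 libraries of each kind before transfer and at 5 and 20 min. The third compared WT with ccr4delta/delta, pop2delta/delta and xrn1delta/delta at 3 stages, with 1 RNA-seq and 1 tag library for every strain at every stage. The stages were vegetative growth in YPD (labelled Veg), premeiotic cells (Pre) and 5 h in SPO (Mei). The fourth held a WT control (Ct) and a degron-Xrn1 strain at 0 and 30 min after addition of 500 µM auxin and 50 µM CuSO4, a treatment meant to remove the Xrn1 protein. The fifth held a WT control and a pCup1-Ccr4 strain, in which copper drives CCR4, at 0 and 60 min after 50 µM CuSO4, with 1 library of each kind per group in both. The labels give the 0 min cells and the Ct controls no agent of their own, and do not say whether the Ct cells were treated. Nothing in them says that replicate libraries are of separate cultures. All p-values therefore cover only the scatter among these libraries, which could be technical.

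The 8 genes lie as 4 divergent couples, each with a shared region between the start codons, and the sequences of these regions are shown first. Each of the 4 regions, 646 to 817 bases long in the R64 reference (an S288C genome, whereas the samples were SK1), held 1 match to GTTCC, 6 bases of any kind, TTC, 1 base of any kind and C. That is a form of the consensus of the upstream activating element bound by Spt10, a regulator of the core histone genes. Other forms were not searched for, so the matches do not count the elements of a region. In the 56 bases printed for each region, 5' to 3' on the strand of the match, capitals mark the 16-base match.
HTB1-HTA1, chrIV:915093-915148, plus strand: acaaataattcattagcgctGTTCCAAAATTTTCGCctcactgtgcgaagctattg
HTA2-HTB2, chrII:236088-236143, minus strand: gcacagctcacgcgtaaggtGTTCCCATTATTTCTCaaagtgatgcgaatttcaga
HHF1-HHT1, chrII:255924-255979, minus strand: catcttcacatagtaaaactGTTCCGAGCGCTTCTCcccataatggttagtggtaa
HHT2-HHF2, chrXIV:576326-576381, minus strand: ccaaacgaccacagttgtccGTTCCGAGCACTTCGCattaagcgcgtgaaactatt
On both strands of the 500 bases before the start codon, the motif occurred in 8 of 8 members. It occurred in 31 of 6002 genes (0.516%), of which 23 were not members. Whether the consensus was drawn from these same regions was not checked, so the 8 of 8 is no measure of enrichment. The match lay 259 to 401 bases from the start codons. A match describes these letters in the reference and shows no binding.

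The genes of a pair are near-identical copies, so how reads were split between them bears on every value below. Each has 1 coding exon. Over the coding sequence the H2A pair was 93.7% identical (25 of 399 bases differed), the H2B pair 87.9% (48 of 396), the H3 pair 93.2% (28 of 411) and the H4 pair 97.4% (8 of 312). The last 90 coding bases, stop codon included, are shown for the most different and the most alike pair, with capitals at bases that differ from the partner.
HTB1, chrIV:914317-914406, minus strand: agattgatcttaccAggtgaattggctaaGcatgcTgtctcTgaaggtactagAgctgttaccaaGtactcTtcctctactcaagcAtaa
HTB2, chrII:236798-236887, plus strand: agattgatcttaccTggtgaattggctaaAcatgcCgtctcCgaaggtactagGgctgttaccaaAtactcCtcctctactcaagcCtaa
HHF1, chrII:255373-255462, minus strand: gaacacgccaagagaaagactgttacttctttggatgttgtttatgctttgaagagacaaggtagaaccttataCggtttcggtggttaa
HHF2, chrXIV:576949-577038, plus strand: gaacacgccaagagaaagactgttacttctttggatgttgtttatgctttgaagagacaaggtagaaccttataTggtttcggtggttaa
The longest run of bases shared without a difference was 35 in the H2B pair and 80 in the H4 pair. The rule for reads that match both copies was not found in the labels, so the split within a pair is less certain than the sum, most of all for H4.

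RNA-seq libraries held 132594 to 4689131 counts and tag libraries 71930 to 8926553. The 8 genes took 0.0405% to 1.14% of RNA counts as group means in the replicated experiments. The targeted genes followed the labels: CCR4 stood at 0 to 1.80 CPM in the ccr4delta/delta libraries, POP2 at 0 in those of pop2delta/delta, and XRN1 at 1.76 to 4.38 in those of xrn1delta/delta. In WT of the same experiment these genes stood at 91.2 to 147 (CCR4), 56.4 to 88.5 (POP2) and 152 to 373 CPM (XRN1). CCR4 went from 105 to 490.4 CPM after copper. XRN1 RNA stood at 128 and 122 CPM in the degron strain at 0 and 30 min, which does not bear on its protein. CPM here is the read count brought to a common library size, with TMM factors fitted within each experiment. The levels of 6 early meiotic genes in WT summed to 37.4 CPM in Veg, 3221 in Pre and 8624 in Mei. In Pre most of that sum was IME1, the inducer of meiosis.

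All 8 core histone genes changed over the sporulation course (edgeR's quasi-likelihood test over 10 hours, Benjamini-Hochberg adjusted p from 3.63e-11 to 4.66e-06), as did 94.5% of the 6269 genes tested. They moved together down to 1 h, then up to a maximum at 3 h and down to 5 h. After 5 h they parted. From 5 to 7 h mean CPM rose from 935 to 1071 for HHF1 and from 653 to 736 for HHF2. HHT1 (587 to 657) and, by little, HTA1 (789 to 800) were higher too. HTB1 (906 to 847), HHT2 (871 to 737), HTB2 (393 to 337) and HTA2 (178 to 143) were lower. The step from 5 to 7 h was not tested. The summed share of the 8 genes in raw RNA counts, without TMM factors, was 0.474% ± 0.0659 (SD, n = 2) on transfer to SPO. It was 0.228% ± 0.00631 after 1 h, reached 1.14% ± 0.0557 after 3 h and had come down to 0.408% ± 0.0104 by the last hour, 9 h. The 2 libraries of 3 h differed in their stage markers: 5 middle meiotic genes summed to 580 CPM in the lower and 5505 in the higher. The part of this difference in the histone values was not tested. In bulk samples, fewer cells of a type and less RNA per cell cannot be told apart.

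The H2A genes differed in level and in the depth of the dip. HTA1 stood at 772 and 1007 CPM on transfer (0 h), fell to 308 and 348 by 1 h, was at 991 and 957 by 2 h and 1411 and 1512 by 3 h, and was then at 754 and 825 by 5 h and 682 and 670.2 by 9 h. HTA2 stood at 236 and 312 CPM on transfer (0 h), fell to 52.6 and 66.3 by 1 h, was at 273 and 285 by 2 h and 444 and 468 by 3 h, and was then at 176 and 179.7 by 5 h and 91.1 and 73.6 by 9 h. At 1 h both libraries of each gene lay below both of 0 h, and at 3 h both lay above every library of 0, 1 and 5 h. On the log2 scale HTA1 fell by 1.44 from 0 to 1 h (SE 0.16, edgeR adjusted p = 2.43e-07) and HTA2 by 2.19 (SE 0.16, edgeR adjusted p = 1.13e-09). From 1 to 3 h HTA1 rose by 2.16 (SE 0.16) and HTA2 by 2.92 (SE 0.16).

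HTB2 had the largest rise of the 8 from 1 to 3 h. HTB1 stood at 717 and 894 CPM on transfer (0 h), fell to 305 and 352 by 1 h, was at 1066 and 965 by 2 h and 1501 and 1733 by 3 h, and was then at 942 and 871 by 5 h and 607 and 733 by 9 h. HTB2 stood at 139 and 184 CPM on transfer (0 h), fell to 77.4 and 82.2 by 1 h, was at 446 and 458 by 2 h and 692 and 836 by 3 h, and was then at 399.6 and 387 by 5 h and 168 and 227 by 9 h. HTB2 was in both libraries higher at 2, 3 and 5 h than at 0 h, whereas HTB1 at 5 h lay within or just above its range at 0 h. The log2 change from 1 to 3 h was 3.26 (SE 0.19, edgeR adjusted p = 1.04e-09) for HTB2 and 2.30 (SE 0.17, edgeR adjusted p = 8.76e-09) for HTB1.

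HHT2 dipped least. HHT1 stood at 464 and 555 CPM on transfer (0 h), fell to 211 and 217 by 1 h, was at 644 and 567 by 2 h and 1027 and 911 by 3 h, and was then at 659 and 514 by 5 h and 475 and 458 by 9 h. HHT2 stood at 952 and 958 CPM on transfer (0 h), fell to 714 and 661 by 1 h, was at 1129.7 and 965 by 2 h and 1542 and 1382 by 3 h, and was then at 952 and 789.8 by 5 h and 593 and 576 by 9 h. The libraries of 0 and 1 h did not overlap for either gene. The log2 change from 0 to 1 h was -0.47 (SE 0.15, edgeR adjusted p = 0.0134) for HHT2, against -1.25 (SE 0.15, edgeR adjusted p = 8.27e-07) for HHT1. HHT2 was not called from 0 to 1 h without replicate 2 of 0 h (adjusted p = 0.0509), without replicate 2 of 1 h (0.0868) or with library sizes alone as the scaling (0.0532), in the same edgeR test.

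HHF1 gained the most CPM of the 8 from 1 to 3 h. HHF1 stood at 462 and 582 CPM on transfer (0 h), fell to 199.8 and 221 by 1 h, was at 870.3 and 863 by 2 h and 1646 and 1803 by 3 h, and was then at 963 and 906 by 5 h and 878 and 1017 by 9 h. HHF2 stood at 563 and 739 CPM on transfer (0 h), fell to 216 and 259 by 1 h, was at 729 and 724 by 2 h and 1127 and 1278 by 3 h, and was then at 662 and 643 by 5 h and 529.8 and 571 by 9 h. By reads HHF1 lay below HHF2 at 0 h and above it from 2 h on, in both libraries of each hour. By poly(A) tags HHF2 took 51.7% to 80.0% of its pair in the 18 libraries of 1 to 9 h. In tags HHF1 thus stayed below HHF2 at each of these hours. From 1 to 3 h HHF1 rose by 3.03 (SE 0.17, edgeR adjusted p = 3.95e-10) on the log2 scale and HHF2 by 2.34 (SE 0.18, edgeR adjusted p = 8.95e-09).

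**Figure D1:**
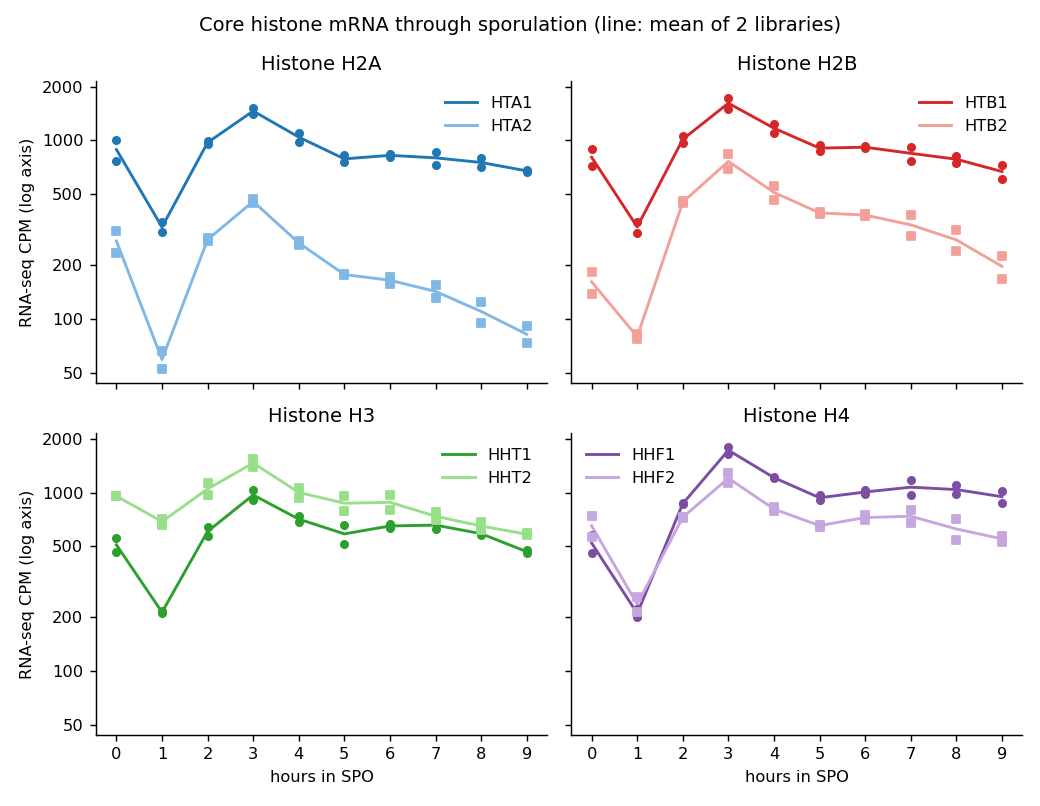
RNA-seq CPM (log axis) of the 8 core histone genes against hours in SPO, 1 panel per histone, with a point for each of 2 libraries and a line through their mean. All 8 genes are highest at 3 h, and 7 are lowest at 1 h while HHT2 is lowest at 9 h.

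From 0 to 1 h 8 of 8 genes fell (median log2 change -1.30), where 29.3% of genes tested fell. From 1 to 3 h 8 of 8 rose (median 2.32), where 21.9% rose, and from 3 to 5 h 8 of 8 fell (median -0.88, range -1.36 to -0.72), where 14.3% fell. From 5 to 9 h 4 of 8 fell, where 26% of genes fell. These were HTA2 at -1.14 (SE 0.20, edgeR adjusted p = 0.000111), HTB2 at -0.97 (SE 0.19, edgeR adjusted p = 0.000389), HHT2 at -0.58 (SE 0.16, edgeR adjusted p = 0.0052) and HTB1 at -0.43 (SE 0.17, edgeR adjusted p = 0.0373). HHF1 stood at 0.02 (SE 0.16, edgeR adjusted p = 0.924) over the same hours, and HTA1, HHT1 and HHF2 at -0.22, -0.34 and -0.24. The median of all genes was within 0.06 of 0 in these 4 steps. Without replicate 1 of 5 h, 2 of the 4 late falls were called, and with library sizes alone 7 of 8 fell, while the median of all genes moved to -0.27. By poly(A) tag counts of the same hours 1 of 8 was called lower from 3 to 5 h, where 3.57% of genes were, at a median change of -0.65. From 5 to 9 h 0 of 8 were, where 6.47% of genes were, at a median of -0.33 against -0.38 by reads.

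Levels between genes were compared by reads, per kilobase of coding sequence. HHT2 was the highest of the 8 at 0 h and 1 h, at 2323 and 1673 CPM per kb, with HTA1 (2229.7) within its spread of it at 0 h. HHF1 was the highest from 2 h to 9 h, at 5528 at 3 h, followed there by HTB1 (4084), HHF2 (3855), HTA1 (3663) and HHT2 (3558). Neighbours in that order from HTB1 to HHT2 did not differ beyond their spread, as their libraries overlapped. HTB2 and HTA2 were the lowest, at 1929 and 1142 at 3 h. By poly(A) tags the order at 3 h was another. HHT2 (1294 and 1333 tag CPM) and HHF2 (1150 and 1222) stood above HHF1 (749 and 856) and HTB1 (843 and 830). In shape, HTB1 was nearest to the mean of the other 7 (Pearson r = 0.998 over 10 hourly means) and HHT2 farthest from it (0.722). Outside the 8, the genes with the most similar hourly profile were SEC61 (0.914), SOH1 (0.903), IZH4 (0.876), CDC11 (0.873) and YOR108C-A (0.858) of 6261 ranked. These are descriptions, since the hours share libraries across genes.

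Of the S phase, variant and linker histone genes listed, 0 fell from 0 to 1 h. Of 3 histone variant and linker genes, HHO1 (linker histone H1) and CSE4 (the centromeric H3) rose from 0 to 1 h, by 0.84 (SE 0.14, edgeR adjusted p = 3.65e-05) and 0.82 (SE 0.20, edgeR adjusted p = 0.00202) on the log2 scale. From 1 to 3 h these and HTZ1 (the H2A variant H2A.Z) rose, by 0.84, 1.08 and 1.09. HHO1 stood at 458 CPM at 3 h and 751 at 6 h, as means of 2 libraries. Of 13 S phase genes, 9 rose and 0 fell from 0 to 1 h (median 0.91), where 28.4% of all genes rose and 29.3% fell, led by POL30 (the sliding clamp PCNA, 2.02) and RFA2 and RFA1 (subunits of replication protein A, 1.90 and 1.90). From 1 to 3 h 11 of 13 rose (median 0.82), with CLB6, a cyclin, at 2.65 and RNR1, the large subunit of ribonucleotide reductase, at 1.86. From 3 to 5 h 8 of 13 fell.

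Of 12 regulators of histone genes, 6 rose and 2 fell from 0 to 1 h, 5 rose and 0 fell from 1 to 3 h, and 0 rose and 4 fell from 3 to 5 h. Of all genes 21.9% rose and 20.6% fell in the second of these steps, and 15.1% rose and 14.3% fell in the third. SPT21, a partner of Spt10, rose by 0.58 (SE 0.14, edgeR adjusted p = 0.00247) from 1 to 3 h and fell by 0.75 from 3 to 5 h. SWI4, the DNA-binding part of the SBF factor, rose by 1.12 and 0.58 in the first 2 steps. ASF1, a chaperone of H3 and H4, rose by 1.01 and 0.82. Of 13 histone chaperone and acetyltransferase genes, 5 rose and 1 fell from 0 to 1 h, with CAC2 (a subunit of chromatin assembly factor 1) at 1.84. Of 6 genes of histone mRNA or protein turnover, 2 rose and 4 fell from 0 to 1 h, with TRF5, a nuclear poly(A) polymerase, at -1.12. Of 6 early meiotic genes 5 rose in the first step (median 3.50) and 6 rose in the second. Of 6 genes normally restricted to haploid cells 2 rose from 0 to 1 h, with a summed level of 72.8 to 80.0 CPM at 0 h and 145 to 167 at 1 h, and their part in the histone values was not tested.

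On return to YPD after 1 h in SPO, 7 of the 8 core histone RNAs fell within 20 min, where 42.7% of the 6109 genes tested fell, and HTB2 did not pass the test. HHT2 had 648 and 659 CPM before transfer, 315 and 268 after 5 min and 77.6 and 70.2 after 20 min. HTA1 had 309 and 321 CPM before transfer, 199 and 226 after 5 min and 51.0 and 62.3 after 20 min. HTB1 had 317 and 306 CPM before transfer, 278 and 253 after 5 min and 88.1 and 90.7 after 20 min. In each of these 3 genes the libraries of the 3 times did not overlap, and those of 20 min were the lowest. HHF1 had 144 and 176 CPM before transfer, 98.3 and 120.3 after 5 min and 39.9 and 41.8 after 20 min, in the same order and again without overlap.

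The other 4 genes had log2 changes nearer to 0. HHT1 had 212 and 263 CPM before transfer, 204 and 176 after 5 min and 104 and 99.4 after 20 min. HHF2 had 201 and 182 CPM before transfer, 99.7 and 102 after 5 min and 94.8 and 95.2 after 20 min. HHF2 was near its 20 min level by 5 min, and for both genes no library of 5 or 20 min reached those before transfer. HTA2 had 41.7 and 29.9 CPM before transfer, 29.8 and 26.1 after 5 min and 18.8 and 16.8 after 20 min. HTB2 had 62.9 and 61.5 CPM before transfer, 69.9 and 56.6 after 5 min and 57.1 and 52.8 after 20 min. The 5 min libraries of HTB2 spanned those before transfer, and its 20 min libraries lay just below them.

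In the fit the log2 change at 20 min was -3.15 (SE 0.16, edgeR adjusted p = 2.87e-21) for HHT2, -2.45 (SE 0.16, edgeR adjusted p = 3.68e-17) for HTA1 and -1.95 (SE 0.17, edgeR adjusted p = 2.77e-13) for HHF1. It was -1.80 for HTB1, -1.22 for HHT1, -1.05 for HTA2 and -1.02 for HHF2. HTB2 was at -0.19 (SE 0.18, edgeR adjusted p = 0.334). The median of the 8 was -1.51 and that of all genes -0.10. With library sizes alone that median was -0.77, 8 of 8 fell and HTB2 stood at -0.86 (edgeR adjusted p = 4.94e-05). At 5 min 4 of 8 fell, where 46.7% of genes fell: HHT2 at -1.17 (SE 0.14), HHF2 at -0.93 (SE 0.16), HTA1 at -0.56 (SE 0.15) and HHF1 at -0.53 (SE 0.16). DESeq2 called 2 of these 4, HHT2 and HHF2. By poly(A) tags 0 of 8 were called lower at 5 min, where 7.24% of genes were (median of the 8 -0.20, and -0.47 by reads), and 3 of 8 at 20 min, where 28.2% were (median -0.92). HHT1 stood by tags at 0.15 at 20 min, against -1.22 by reads.

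After 7 h in SPO, the same transfer was followed by a fall of 7 of 8 genes at 5 min, where 23.1% of genes fell, and by intermediate levels at 20 min. HHT2 had 642 and 572 CPM before transfer, 214 and 215 after 5 min and 351 and 352 after 20 min. HTA1 had 539 and 445 CPM before transfer, 248 and 245 after 5 min and 353 and 421 after 20 min. HHF1 had 605 and 588 CPM before transfer, 314 and 332 after 5 min and 484 and 559 after 20 min. In each of the 3 the 5 min libraries were the lowest and did not overlap those of either other time. HTB1 had 723 and 675 CPM before transfer, 372 and 370.3 after 5 min and 516 and 586 after 20 min. HTB2 had 178 and 207 CPM before transfer, 89.8 and 72.4 after 5 min and 131 and 162 after 20 min. HHF2 had 496 and 516 CPM before transfer, 209.9 and 209 after 5 min and 264 and 349.7 after 20 min. In these 3 too the 5 min libraries were the lowest and stood apart. HHT1 had 466 and 469 CPM before transfer, 327 and 313 after 5 min and 403 and 395 after 20 min. HTA2 had 64.5 and 31.8 CPM before transfer, 66.6 and 58.7 after 5 min and 56.9 and 74.2 after 20 min, with groups that overlap. The second library before transfer had 132594 counts, the fewest of the RNA-seq libraries, and 441 of them on the 8 genes. It is part of the starting level in each comparison made from 7 h.

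At 5 min after 7 h, the 7 genes had log2 changes from -0.55 (HHT1) to -1.53 (SE 0.16, edgeR adjusted p = 2.25e-10) for HHT2, while HTA2 stood at 0.06 (SE 0.27). At 20 min 2 of 8 were below their starting level, where 11.2% of genes were: HHT2 at -0.81 (SE 0.16, edgeR adjusted p = 0.000101) and HHF2 at -0.75 (SE 0.17, edgeR adjusted p = 0.000412). The other 6 ran from -0.42 (HTA1) to 0.06 (HTA2). With library sizes alone, as with RLE size factors, 4 of 8 were below at 20 min. By leaving out single libraries the count ran from 1 to 3, with 1 without replicate 1 of 20 min. By tags 4 of 8 were called lower at 5 min, where 9.16% of genes were, and 0 of 8 at 20 min, where 1.49% were. The median change at 20 min was -0.41 by tags and -0.38 by reads.

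**Figure D2:**
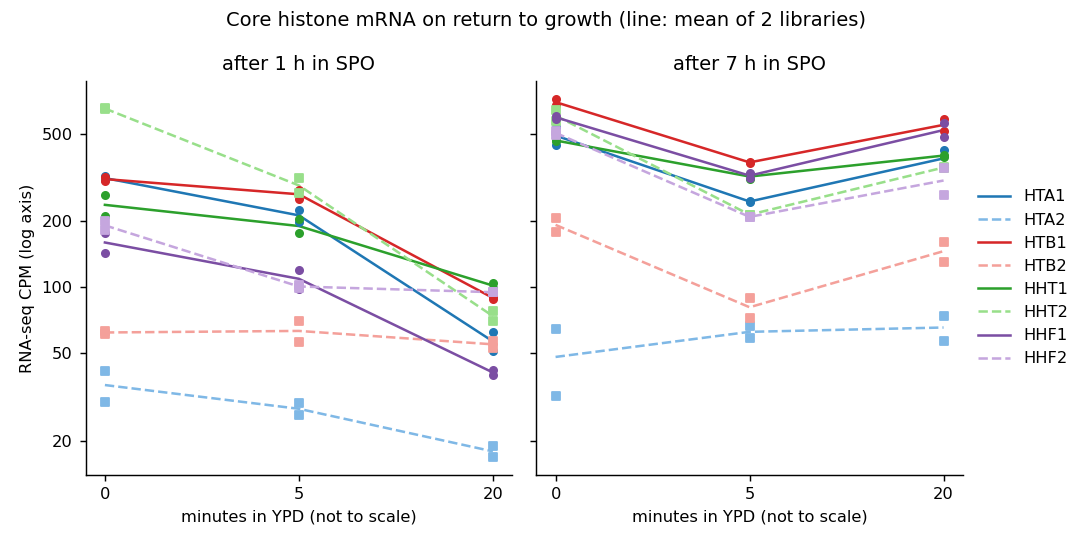
RNA-seq CPM (log axis) of the 8 genes against minutes in YPD after 1 h (left) or 7 h (right) in SPO, with a point per library and lines through the mean of 2. After 1 h the lines of 7 genes fall to 20 min and that of HTB2 is nearly level, and after 7 h those of 7 genes are lowest at 5 min.

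The change at 20 min itself differed between the starting points for 6 of 8 genes, all less negative after 7 h, where 32.4% of genes had a higher value. The difference of log2 changes was 2.34 (SE 0.22, edgeR adjusted p = 5.94e-12) for HHT2, 2.04 (SE 0.23, edgeR adjusted p = 5.69e-10) for HTA1, 1.74 (SE 0.24, edgeR adjusted p = 3.44e-08) for HHF1 and 1.43 (SE 0.22, edgeR adjusted p = 3.32e-07) for HTB1. It was 1.11 (SE 0.37) for HTA2 and 0.99 (SE 0.23) for HHT1. HHF2 stood at 0.27 (SE 0.23, edgeR adjusted p = 0.316) and HTB2 at -0.19 (SE 0.27, edgeR adjusted p = 0.552). With library sizes alone HHF2 passed too (0.91), while the median of all genes went from 0.11 to 0.75. HTA2 was lost without replicate 1 of the 1 h cells (0.82, adjusted p = 0.0958) and in DESeq2 (1.09, adjusted p = 0.0727). By tags 1 of 8 was called, where 19% of genes were higher, at a median of 0.67 against 1.27 by reads, and HHT1 stood at -0.35.

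The early meiotic genes fell in these transfers too, at 20 min in larger proportion than the median of the histone genes. Their summed level, over 6 genes, was 2885 to 3674 CPM in the 1 h cells. It was 441 to 470 after 5 min and 31.7 to 34.4 after 20 min in YPD. In the 7 h cells it was 3676 to 3869, and then 655 to 680 after 5 min and 1486 to 1793 after 20 min. The 6 haploid-cell genes summed to 122 to 138 CPM in the 1 h cells and 28.3 to 34.5 after 20 min, with MFA2 at 0. They summed to 460.1 to 540.3 in the 7 h cells and 323 to 365 after 20 min. The part of cell state in the histone values was not tested. Of 3 variant and linker genes, 3 fell at 20 min after 1 h, with HHO1 at -2.26 (SE 0.17, edgeR adjusted p = 8.83e-16), and 2 fell after 7 h. Of 13 S phase genes, 4 rose and 6 fell at 20 min after 1 h, with CLB6 at 2.11 and RFA1 at -1.97, and 0 rose and 7 fell after 7 h. Of all genes 38.4% rose and 42.7% fell at 20 min after 1 h, and 17.9% rose and 11.2% fell after 7 h. Of 12 histone gene regulators 2 rose and 7 fell at 5 min after 1 h, where 27.4% of genes rose and 46.7% fell, led by SWI4 (-2.46) and SPT21 (-1.57). Of 6 turnover genes 4 rose at 20 min after 1 h (median 1.95): TRF5 (2.87), RRP6, a nuclear exosome exonuclease (2.70), PAP2, the other nuclear poly(A) polymerase (2.02), and LSM1, a decapping activator (1.88).

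In the strains with single libraries no test was made, and a difference counts as at least 2-fold in CPM, with a prior count of 2. In WT, histone RNA was lower in premeiotic cells than in growing ones, most of all HTA2 and HTB2. HTA2 stood at 829 CPM in Veg, 11.4 in Pre and 188 in Mei. HTB2 stood at 733, 11.4 and 409. HHF2 stood at 1179, 91.2 and 609. In Pre, HTA2 and HTB2 had 3 counts each, so the ratio of Veg to Pre was 72.7 (95% exact counting interval 24.8 to 354) for HTA2 and 64.3 (21.9 to 313) for HTB2, and it was 12.9 (8.64 to 20.3) for HHF2. Such intervals cover counting error only. By poly(A) tags the ratio for HTA2 was 61.1 (45.1 to 84.8), from 42 tags in Pre. Their partners were lower by less: HTA1 stood at 722, 441 and 1002 CPM, and HTB1 at 1162, 372 and 1253.

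In all, 7 of 8 were at least 2-fold lower in Pre than in Veg (median log2 ratio -2.06), where 29.3% of genes were, and HTA1 was at -0.71. With library sizes alone 5 of 8 were (median -1.41, with the median of all genes moved from -0.30 to 0.31). At 5 h in SPO 1 of 8 was lower than in Veg, HTA2 at -2.12, where 29.1% of genes were (median of the 8 -0.03). By poly(A) tags 4 of 8 were, namely HTA2, HHF2, HHT1 and HTB2, where 29.5% of genes were, and 7 of 8 lay below Veg (median -0.71). In the libraries fragmented before adapter ligation, added after the data were seen, HTA2 was again lower (-1.60), and HHF2 too (-1.10), where 26.4% of genes were. Of 13 S phase genes 8 were lower in Pre than in Veg and 0 higher, where 19.6% of all genes were higher, with RNR1 at 505 CPM in Veg and 72.2 in Pre.

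The balance within the H2A and H2B pairs differed between growth and meiosis. In growing WT cells HTA2 took 53.5% of the reads of its pair (95% exact Clopper-Pearson interval 50.6 to 56.3), and 48.4% to 55.1% in the WT controls of the degron and copper experiments. In the sporulation course the share began at 23.5% ± 0.185 (SD, n = 2), was 15.3% ± 1.02 after 1 h and 23.8% ± 0.225 after 3 h, and ended at 10.8% ± 1.33 after 9 h. Over the 18 libraries of 1 to 9 h it ran from 9.90% to 23.9%, so no library reached the level of growing cells. In WT Pre it was 2.52% (0.523 to 7.19) and in WT Mei 15.8% (12.7 to 19.3). The share of HTB2 was 38.7% (36.2 to 41.2) in WT Veg, 2.97% (0.617 to 8.44) in Pre, and went from 16.7% ± 0.598 at 0 h to 32.0% ± 0.707 at 3 h and 22.7% ± 1.36 at 9 h. Both WT Pre and 0 h cells came from premeiotic growth, and their shares differed beyond counting error (2.52% and 23.5% for HTA2). The 6 early meiotic genes summed to 3221 CPM in WT Pre and 1013 to 1207 at 0 h, each scaled within its experiment. In WT Pre most of that sum was IME1 alone. The part of stage in these shares was not tested.

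**Figure D3:**
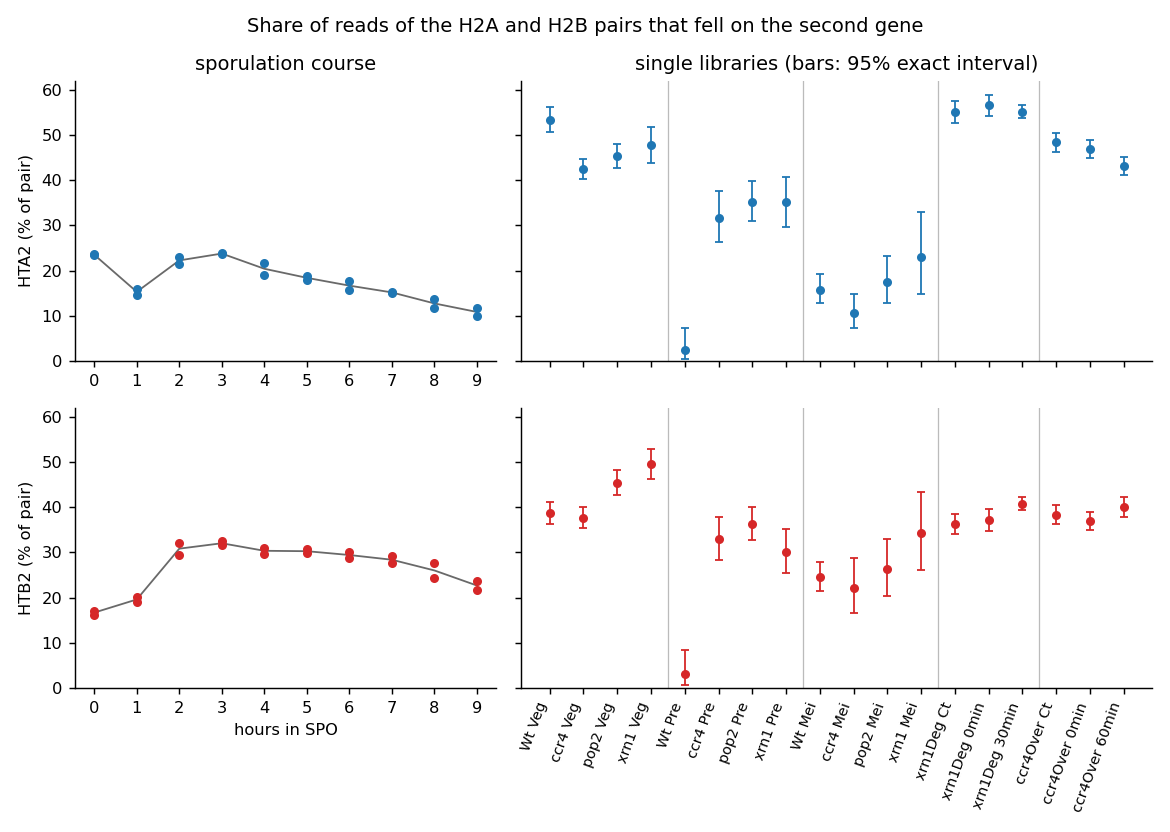
Reads on the second gene as a percent of its pair, for HTA2 (top) and HTB2 (bottom), by hour with 2 libraries each (left, line at the mean) and in single libraries with 95% exact binomial intervals (right). HTA2 is between 42.6% and 56.6% in the vegetative, degron and copper libraries and at 2.52% in WT Pre.

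For H3 the share of HHT2 was 65.3% ± 2.76 at 0 h, 76.3% ± 1.32 at 1 h and 52.8% ± 0.161 at 7 h, and on return after 1 h it went from 73.4% ± 2.75 to 60.5% ± 0.260 at 5 min and 42.0% ± 0.914 at 20 min. For H4 the share of HHF2 was 55.5% ± 0.720 at 0 h, 41.1% ± 0.591 at 3 h and 36.8% ± 1.20 at 9 h, and 69.9% ± 0.639 at 20 min of return after 1 h. The 20 min cells of the 1 h series held more HHT1 than HHT2 and more HHF2 than HHF1, though HHT2 and HHF2 share a promoter region, as do HHT1 and HHF1. By poly(A) tags the split was another. The share of HHF2 was then 71.1% ± 4.33 at 0 h, 59.7% ± 1.21 at 3 h and 59.3% ± 3.84 at 9 h. HTB2 took 78.6% to 85.0% of tags of its pair in the 4 Veg libraries, against 37.7% to 49.6% of reads, and HTA2 28.2% to 34.0% of tags, against 42.6% to 53.5% of reads. Shares were therefore compared only within an assay.

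In vegetative cells lacking CCR4 or POP2, 0 of 8 core histone RNAs were 2-fold higher or lower than in WT. The log2 ratios ran from -0.63 (HHF2) to 0.44 (HHT1) in ccr4delta/delta, where 7.79% of genes were higher and 2.57% lower, and from -0.77 (HHF2) to 0.38 (HHT1) in pop2delta/delta, where 10% were higher and 8.12% lower. In xrn1delta/delta all 8 were below WT (median -0.77) and 1, HTA2 at -1.04, was 2-fold lower, where 10.5% of genes were. That direction rests on the scaling: with library sizes alone the median was -0.01, with 4 above and 4 below WT, while the median of all genes went from -0.11 to 0.62. The 8 genes took 0.488% of counts in WT (interval 0.476 to 0.501) and 0.493% in xrn1delta/delta (0.476 to 0.510). In the libraries fragmented before ligation the 8 log2 ratios ran from -1.05 (HTB1) to -0.41 (HHT1), and 2 of 8 were 2-fold lower, where 16.1% of genes were. This direction turned too with library sizes alone: 6 of 8 lay above WT (median 0.12, with that of all genes at 0.90), and the 8 genes took 0.268% of counts in WT (0.254 to 0.283) and 0.310% in xrn1delta/delta (0.294 to 0.327). By poly(A) tags 4 of 8 were 2-fold lower (median -0.99), where 15.2% of genes were.

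In the premeiotic libraries the mutants held more HTA2, HTB2 and HHF2 than WT. HTA2 stood at 11.4 CPM in WT and at 155, 279 and 187 in ccr4delta/delta, pop2delta/delta and xrn1delta/delta. HTB2 stood at 11.4 in WT and at 236, 432 and 196 in the same order, and HHF2 at 91.2 and 556, 742 and 443. All 3 genes were higher in each mutant than in WT, and for HTA2 by ratios of 13.6 (4.51 to 67.3), 24.5 (8.24 to 120.1) and 16.4 (5.46 to 80.8), with WT at 3 counts. By poly(A) tags these ratios were 10.6 (7.76 to 14.8), 23.5 (17.3 to 32.7) and 5.35 (3.93 to 7.46). HTA1 in the mutants lay on both sides of WT, at 441 in WT and 334, 513 and 346 in the mutants. At least 2-fold higher were 4 of 8 in ccr4delta/delta, 6 of 8 in pop2delta/delta and 3 of 8 in xrn1delta/delta, where 19.2%, 18.8% and 19.7% of genes were, and the same counts held with library sizes alone. The share of HTA2 in its pair was 31.7%, 35.2% and 35.1% in the mutants, against 2.52% in WT.

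The stage markers differed in the same libraries. IME1, the inducer of meiosis, stood at 3049.7 CPM in WT Pre and at 536, 390.3 and 37.0 in the mutants. The summed level of the 6 early genes was 3221 CPM in WT and 581, 456 and 113 in the mutants, with SPO11 at 0 in WT, ccr4delta/delta and pop2delta/delta. In these 3 strains IME1 alone made up most of the sum. The 13 S phase genes summed to 581 CPM in WT and 1647, 1780 and 670 in ccr4delta/delta, pop2delta/delta and xrn1delta/delta. Among them RNR1 stood at 72.2 CPM in WT and 779.5, 789 and 155 in the mutants. In xrn1delta/delta the sum was, in proportion, nearer to WT than RNR1 was. The part of stage in the histone values was not tested.

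At 5 h in SPO the mutants held less histone RNA than WT. HHF1 stood at 1100.3 CPM in WT and 241, 298 and 307 in ccr4delta/delta, pop2delta/delta and xrn1delta/delta. HTB1 stood at 1253 and 344, 469 and 368, and HTB2 at 409 and 98.3, 168 and 193. Each of the 3 genes was at least 2-fold lower in every mutant. In all 4 of 8 were lower in ccr4delta/delta (median -1.20), 3 of 8 in pop2delta/delta (median -0.82) and 7 of 8 in xrn1delta/delta (median -1.56), where 22.2%, 21.6% and 22.3% of genes were. By tags 4 of 8 were lower in xrn1delta/delta, where 18.4% of genes were. With library sizes alone the counts by reads were 4, 1 and 4, and 1 of 8 in pop2delta/delta lay above WT. NDT80, the regulator of the middle meiotic genes, stood at 1531 CPM in WT and 8.93, 6.21 and 35.1 in the mutants, and the 6 early genes summed to 8624 in WT and 679, 1449.7 and 2419 in the mutants. The part of this difference in stage was not tested.

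**Figure D4:**
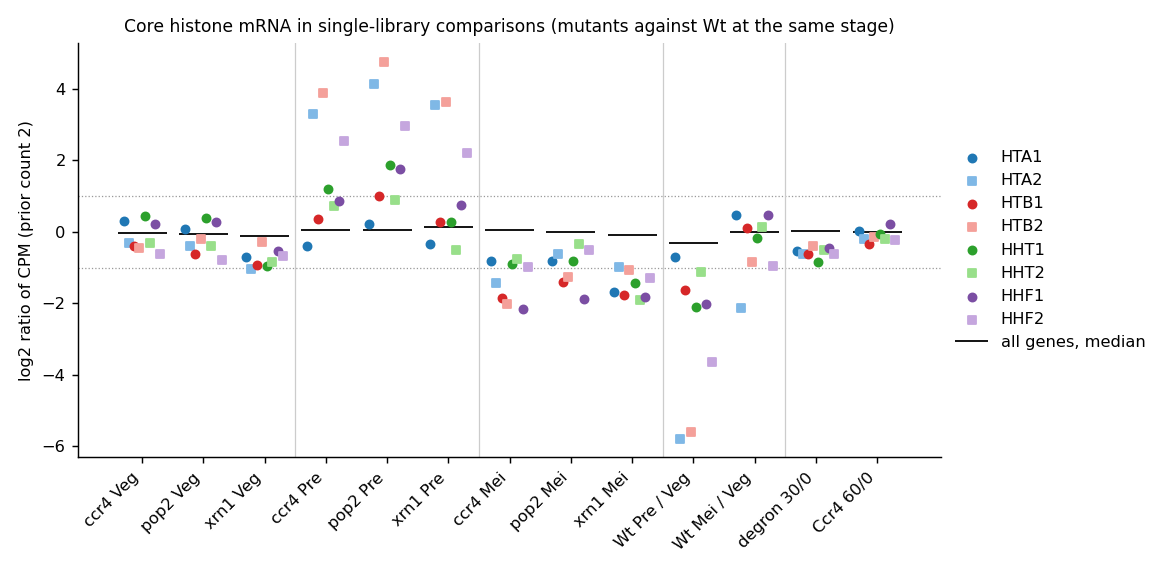
Log2 ratio of CPM (prior count 2) of the 8 genes in the comparisons of single libraries, mutants against WT at the same stage, WT stages against Veg, and times of the degron and copper strains, with dotted lines at 2-fold and a black bar at the median of all genes. HTA2, HTB2 and HHF2 stand highest in the mutants at Pre and lowest in WT Pre against Veg, while no gene passes 2-fold in the last 2 columns.

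Auxin treatment of degron-Xrn1 cells and copper induction of CCR4 went with no 2-fold difference in any member. In degron-Xrn1 cells HTA1 stood at 564 CPM at 0 min and 388 at 30 min, HHT1 at 833 and 464, and HHF2 at 1275 and 834. All 8 were lower at 30 min (median log2 ratio -0.58, and -0.27 with library sizes alone), and 0 of 8 by 2-fold, where 5% of genes were. In pCup1-Ccr4 cells the ratios of 60 to 0 min ran from -0.35 (HTB1) to 0.21 (HHF1), and 0 of 8 passed 2-fold, where 3.83% of genes were lower and 1.2% higher. The sign there depends on the scaling, with a median of -0.17 by TMM and 0.33 by library sizes alone, which moved the median of all genes from 0.0066 to 0.50. Neither difference had a replicate check.

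Mean poly(A) tails of the core histone mRNAs, in nucleotides (nt), were called changed for 0 members in the replicated experiments, in fits with no term for the replicate number. HHT1 had 16.7 and 19.6 nt in the 0 h libraries and 23.9 and 29.6 in those of 1 h. It had 19.4 and 25.7 after 3 h, 23.2 and 27.2 after 5 h, and 19.5 and 18.3 after 9 h. The tails of 1 h were longer than those of 0 h in both libraries (8.62 nt, SE 3.11, limma adjusted p = 0.0700). Over 0 against 1 h, 4 of 8 members had at least 20 tags in each library and 0 were called, where 5.47% of genes were. Over the course 3 were tested and 0 called, where 37.3% of genes were. In both tests HHT1 had an unadjusted p under 0.05 and the others did not. Replicate 2 had more member tags than replicate 1 at each of the 10 hours, longer HHT1 tails at 8 of the 10, and a longer median tail over the 244 genes with enough tags at 10 of the 10, by 0.95 to 5.27 nt. With the replicate number as a block, HHT1 and HHT2 (3.84 nt) were called longer at 1 h than at 0 h, limma adjusted p = 0.00252 and 0.0273, and 1 member was called over the course. Of the 530 genes tested from 0 to 1 h, 299 were then called in place of 29.

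On return to growth 0 members were called in each of the 4 tail tests, over 5 to 8 members with enough tags. The share of genes called was 15.3% at 5 min and 25.9% at 20 min after 1 h, and 0% and 0.117% after 7 h. HHT2 after 1 h had 26.8 and 29.9 nt before transfer, 25.2 and 22.7 at 5 min and 22.7 and 18.3 at 20 min (-7.85 nt, SE 2.87, limma adjusted p = 0.0538). Over the same 20 min the median of all genes tested moved by 4.03 nt the other way. With each library centred on its median HHT2 was called (-11.4 nt, limma adjusted p = 0.00149). At an unadjusted p under 0.05, 1 member passed at 20 min after each starting point, HHT2 after 1 h and HHF2 after 7 h, and 0 at 5 min.

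In the single-library experiments, which had more tags, the tails of the histone mRNAs were longest in ccr4delta/delta and shortest in xrn1delta/delta among the Veg libraries. In WT Veg the 8 means ran from 30.1 nt (HTB1) to 39.0 (HHF2), with a median of all genes of 37.8. In ccr4delta/delta Veg they ran from 45.6 to 54.1 (all genes 49.7), and in xrn1delta/delta Veg from 16.8 to 28.5 (all genes 23.2). The ranges did not overlap between these 3 strains. The shift of the members' median was not that of all genes, in these Veg libraries and in some other pairs. From WT Veg to ccr4delta/delta Veg the members' median went from 35.8 to 50.5 nt, against 37.8 to 49.7 for all genes. In xrn1delta/delta Veg it stood at 26.4, against 23.2. From WT Pre to ccr4delta/delta Pre it went from 30.0 to 46.6 nt, against 33.3 to 42.0 for all genes, and to xrn1delta/delta Pre it went to 24.7, against 19.4. From WT Veg to WT Mei it went from 35.8 to 38.1, against 37.8 to 36.7. HTA1 had 36.0 nt in WT Veg, 51.5 in ccr4delta/delta, 42.4 in pop2delta/delta and 26.9 in xrn1delta/delta. HTB1, the shortest, had 30.1, 45.6, 35.3 and 16.8 in the same order.

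Loss of CCR4 went with tails at least 10 nt longer in 8 of 8 members in Veg and in 8 of 8 in Pre, where 65.1% and 41.7% of genes were longer, and in 0 of 8 in Mei, where 7.79% were. Loss of POP2 went with 0 of 8 in each stage, at median differences of 5.75, 8.70 and -3.91 nt, where 9.98%, 28% and 6.43% of genes were longer. Loss of XRN1 went with tails at least 10 nt shorter in 4 of 8 in Veg, 2 of 8 in Pre and 8 of 8 in Mei, where 75.5%, 74% and 90.9% of genes were shorter. In Veg the 4 were HHT1, HTB1, HHF1 and HHF2, with HHT2 just short of 10 nt. The median difference of members was -10.4 nt in Veg and -6.81 in Pre, against -14.7 and -13.5 for all genes, so the median of the members was nearer to 0, a difference that was not tested. Between WT stages 0 of 8 passed 10 nt, with HTB1 at -9.60 nt in Pre against Veg, where 19.2% of genes were shorter, and HTA2 at 5.67 nt in Mei against Veg, where 3.21% were longer. In degron-Xrn1 cells 6 of 8 were at least 10 nt shorter at 30 min than at 0 min, where 61% of genes were: HHF1 went from 37.8 to 24.5 nt and HTA1 from 37.2 to 25.0. HHF2 and HTA2 were shorter by 8.42 and 6.82 nt. In pCup1-Ccr4 cells 0 of 8 passed 10 nt, where 6.33% of genes did, with HHT2 from 28.8 to 20.7 nt.

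**Figure D5:**
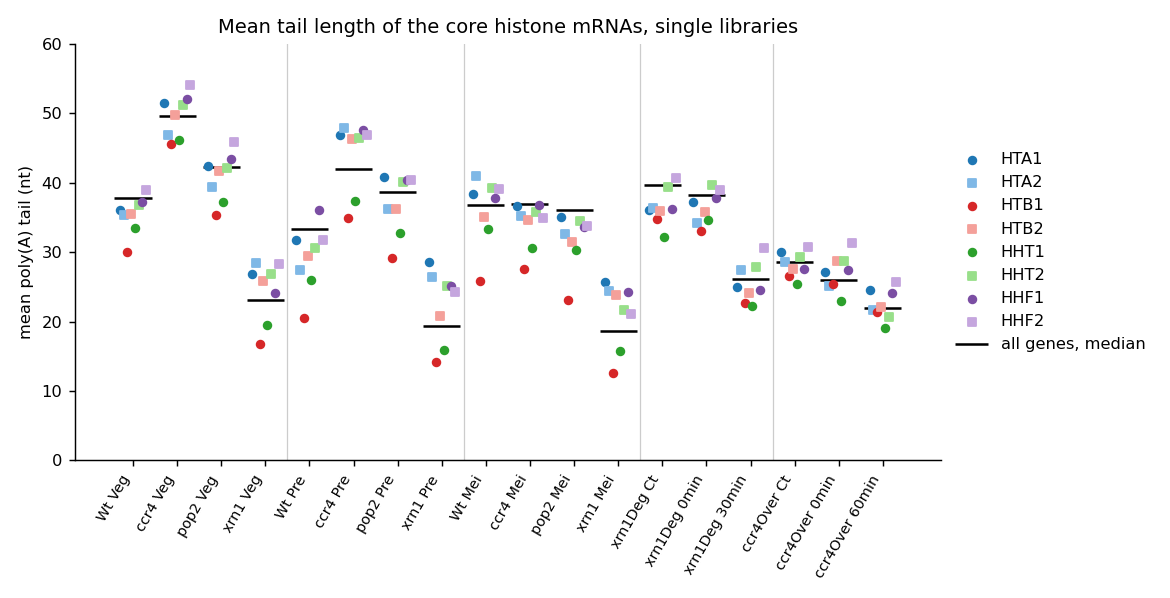
Mean poly(A) tail (nt) of the 8 genes in each single library of the mutant, degron and copper experiments, with a black bar at the median of all genes with at least 20 tags. HTB1 is the shortest of the 8 in all 12 libraries of the mutant experiment. In the xrn1delta/delta libraries the median of the 8 lies above the bar, at 22.8 nt against 18.6 in Mei.

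HTB1 and HHT1 had the shortest tails of the set. Of 38 libraries in which all 8 had at least 20 tags, HTB1 was the shortest in 21 and HHT1 in 14. HTB1 was the shortest in 12 of 12 libraries of the mutant experiment, in 8 of 13 of the course, in 0 of 7 of the return to growth, in 1 of 3 of the degron experiment and in 0 of 3 of the copper experiment. HTA1 and HHF2 were each the longest in 11 of 38. Among all genes of a library, the tail of HTB1 lay at a median percentile of 31.1 (0.743 to 81.0 over the 38 libraries), that of HHT1 at 25.3 and that of HHF2 at 71.3. HTB1 was also the member with the fewest tags for its reads. The log2 ratio of its tag CPM to its read CPM had a median of -0.91 in the course, -2.23 in the return to growth, -1.38 in the mutant experiment, -1.46 in the degron experiment and -3.72 in the copper experiment, the lowest of the 8 in the last 4. That of HTB2 was -0.05, -0.26, 1.35, 0.11 and 0.18 in the same order. The part of this deficit of tags in the tail values was not tested.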

How the data were processed

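Poly(A) RNA ends and total RNA of SK1 yeast were sequenced in 50 mPAT and 50 RNA-seq libraries, plus 3 RNA libraries fragmented before adapter ligation. The authors deposited counts per gene for both assays, not normalized, and a mean poly(A) tail per gene and library in nt. Per the submitters' processing notes, STAR 2.5.3a, bedtools 2.26.0, edgeR and the sacCer3 genome were used; for strand and multimapping, the settings are not given in the sources read. The members and gene lists were chosen with earlier results of these data known. Counts were tested with edgeR 4.0.16 (quasi-likelihood, TMM, filterByExpr, 1 fit per experiment), tails with limma 3.58.1 on genes with at least 20 tags in each library, both in R 4.3.3 with Benjamini-Hochberg adjusted p under 0.05. Replicate numbers were not used as pairs. Single libraries were compared by fold (2-fold, prior count of 2, mean of at least 10 counts) or by 10 nt of tail, with no test. The texts name all 8 members and the 5 genes of most similar course. From the lists they name some, not all, of the called genes with the 3 largest changes. Some other list genes and markers were chosen after their values were seen. Sequences are from the R64 reference. Scripts were tested on simulated data. Alternatives were other scalings, no low-count filter, DESeq2 1.42.0, tag counts, a replicate block, centred tails, other prior counts and leaving out each library.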

Additional observations from a re-analysis of the deposited data

Results flagged for a closer look

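The change at 20 min in YPD differed between cells taken after 7 h and after 1 h in SPO for 6 of the 8 core histone genes, by the interaction term of the edgeR fit. The difference of log2 changes (7 h minus 1 h) was 2.34 for HHT2, 2.04 for HTA1, 1.74 for HHF1, 1.43 for HTB1, 1.11 for HTA2 and 0.99 for HHT1, with adjusted p from 5.94e-12 (HHT2) to 0.008 (HTA2). In each of these 6 genes the log2 change from the level before transfer was more negative in the 1 h cells. The part of cell state, which differs between the starting points, was not tested.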

How the results depend on the processing

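With library sizes alone the members that fell went from 4 to 7 between 5 and 9 h and from 2 to 4 at 20 min after 7 h, and with RLE size factors the latter also gave 4. DESeq2 gave 2 in place of 4 at 5 min after 1 h. Poly(A) tag counts gave 1 in place of 8 from 3 to 5 h, 0 in place of 4 from 5 to 9 h, 0 in place of 4 and 3 in place of 7 at 5 and 20 min after 1 h, 4 in place of 7 and 0 in place of 2 at 5 and 20 min after 7 h, and 1 in place of 6 for the difference between starting points. Fewer of all genes were called by tags too, 1285 in place of 3015 and 400 in place of 1780 at 5 and 20 min after 7 h, and the members' median change there was -0.91 by tags (-0.99 by reads) and -0.41 (-0.38). Tags reversed HHT1 at 20 min after 1 h (0.15) and in that difference (-0.35). The cause was not tested. Library sizes alone moved the split of all genes that rose and fell from 1376 and 1293 to 1847 and 880 (1 to 3 h), from 1541 and 1629 to 1221 and 2144 (5 to 9 h), from 2345 and 2611 to 1656 and 3430 (20 min after 1 h), and from 1982 and 1736 to 2808 and 1137 (the difference).

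Replicate numbers were not taken as pairs, since not every pair of groups had deviations correlated over 0.1: in the course 22 of 45 pairs did for RNA (-0.16 to 0.40) and 19 of 45 for tails (-0.14 to 0.35), and 0 of 15 on return to growth for either. In the course replicate 2 had the longer median tail at 10 of 10 hours. With the replicate block the tail tests called 1 member in place of 0 over the course and 2 in place of 0 from 0 to 1 h (HHT1 and HHT2, limma adjusted p = 0.00252 and 0.0273), with 299 in place of 29 of all genes. Centring each library's tails called 1 member, HHT2, at 20 min after 1 h.

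Leaving out each library gave 8 members over the course, 7 to 8 from 0 to 1 h, 8 from 1 to 3 h and from 3 to 5 h, 2 to 4 from 5 to 9 h, 3 to 5 and 7 at 5 and 20 min after 1 h, 6 to 7 and 1 to 3 after 7 h, 5 to 6 for the difference, 0 to 3 for tails over the course (3 without replicate 1 of 2 h, 2 without replicate 2) and 0 in the other tail tests. A lone library left in a group was assumed to vary like the other groups. Over the 15 single-library comparisons of RNA, members past 2-fold numbered 36, against 37 with a prior count of 0.5 and 39 by tags (31 shared), and 28 with library sizes alone and 37 with RLE. Those last 2 scalings, and the use of libraries fragmented before adapter ligation, were chosen after seeing the data.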
